A study of Mus musculus with 18 samples.

Results

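The hedgehog pathway genes described here are Shh, Ptch1, Smo, Gli1, Gli2, Gli3, Boc, Cdon and Gas1, taken by symbol as 9 of the 23924 genes read from the deposited table. The samples are astrocytes of the primary motor cortex (M1), taken from wild-type C57BL/6 mice, in 18 libraries. Untrained mice (naive, aged 12 to 21 weeks), mice trained for 3 days (novice, aged 11 to 13 weeks) and fully trained mice (expert, aged 13 to 15 weeks) gave 6 libraries each, 2 of them labelled female and 4 male. The trained mice were kept short of water and learned to push a lever on a cue for a water drop, and the labels do not say whether naive mice were also kept short of water. No transgene or agent is named for any group, and the sources used here do not say how the astrocytes were isolated. The question of the comparison is whether these genes differ in M1 astrocytes between stages of learning a movement.

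In the hedgehog pathway the secreted ligand Shh binds the receptor Ptch1, which otherwise holds the membrane protein Smo inactive. Boc, Cdon and Gas1 are co-receptors that help Ptch1 to bind the ligand. Freed Smo acts through the primary cilium on the transcription factors Gli2 and Gli3, which serve as activators or are cut into repressors, and Gli1 and Ptch1 are themselves transcribed in response, so that both are used as readouts of the pathway. In the adult mouse cortex Shh is known to be made by neurons of the deep layers and to be received by a share of the astrocytes.

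The libraries were rich in astrocyte transcripts. The summed level of 10 astrocyte markers, such as the glutamate transporter gene Slc1a2 and the water channel gene Aqp4, lay between 1302 and 5207 FPKM (fragments per kilobase, scaled to the size of the library) in naive libraries, between 1260 and 3404 FPKM in novice libraries and between 1713 and 6373 FPKM in expert libraries, and 0 of the 10 were at 0 in any library. Transcripts of other cells were present too: 8 neuronal markers summed to 83.0 to 536 FPKM and 6 endothelial markers to 94.4 to 375 FPKM over the 18 libraries. The background of a library was taken as the mean FPKM of 1545 genes that brain cells mostly leave silent, chiefly olfactory and vomeronasal receptors. It was 2 FPKM or less in 10 libraries (4 naive, 2 novice and 4 expert, here called the lower background) and above 2 FPKM in 8 libraries (2 naive, 4 novice and 2 expert, the higher background). Expert 3 stood apart with the lowest background, 0.142 FPKM, against 0.775 to 3.95 FPKM in the other 17 libraries. Among the novice libraries, 2 went against their labelled sex by the levels of Xist and Ddx3y: novice 1, labelled female, and novice 3, labelled male. In bulk samples such as these, fewer cells of a type and less RNA per cell cannot be told apart.

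The members spanned a wide range of levels, from the receptor Ptch1 at the top to the ligand Shh at the bottom. By the mean over 18 libraries the order was Ptch1 (16.3 ± 6.96 FPKM, SD, n = 18), Smo (9.27 ± 1.47), Gli3 (8.66 ± 3.60), Boc (5.90 ± 1.42), Gas1 (5.69 ± 2.71), Gli2 (5.07 ± 1.70), Gli1 (3.44 ± 1.03), Cdon (2.35 ± 1.37) and Shh (1.86 ± 1.20 FPKM). Neighbours in that order differed by less than the larger of their SDs, other than Ptch1 and Smo, and the ranges of all neighbours overlapped. Ptch1 was above Smo in 16 of 18 libraries and Gli2 above Gli1 in 17 of 18, whereas Boc was above Gas1 in 10 of 18 and Gas1 above Gli2 in 10 of 18. Within a library, Ptch1 was higher than 67.1% to 93.7% of the genes read and Shh than 11.3% to 49.8% of them. All 9 genes passed the filter for testing, which asked for at least 1 FPKM in at least 6 libraries.

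**Figure D1:**
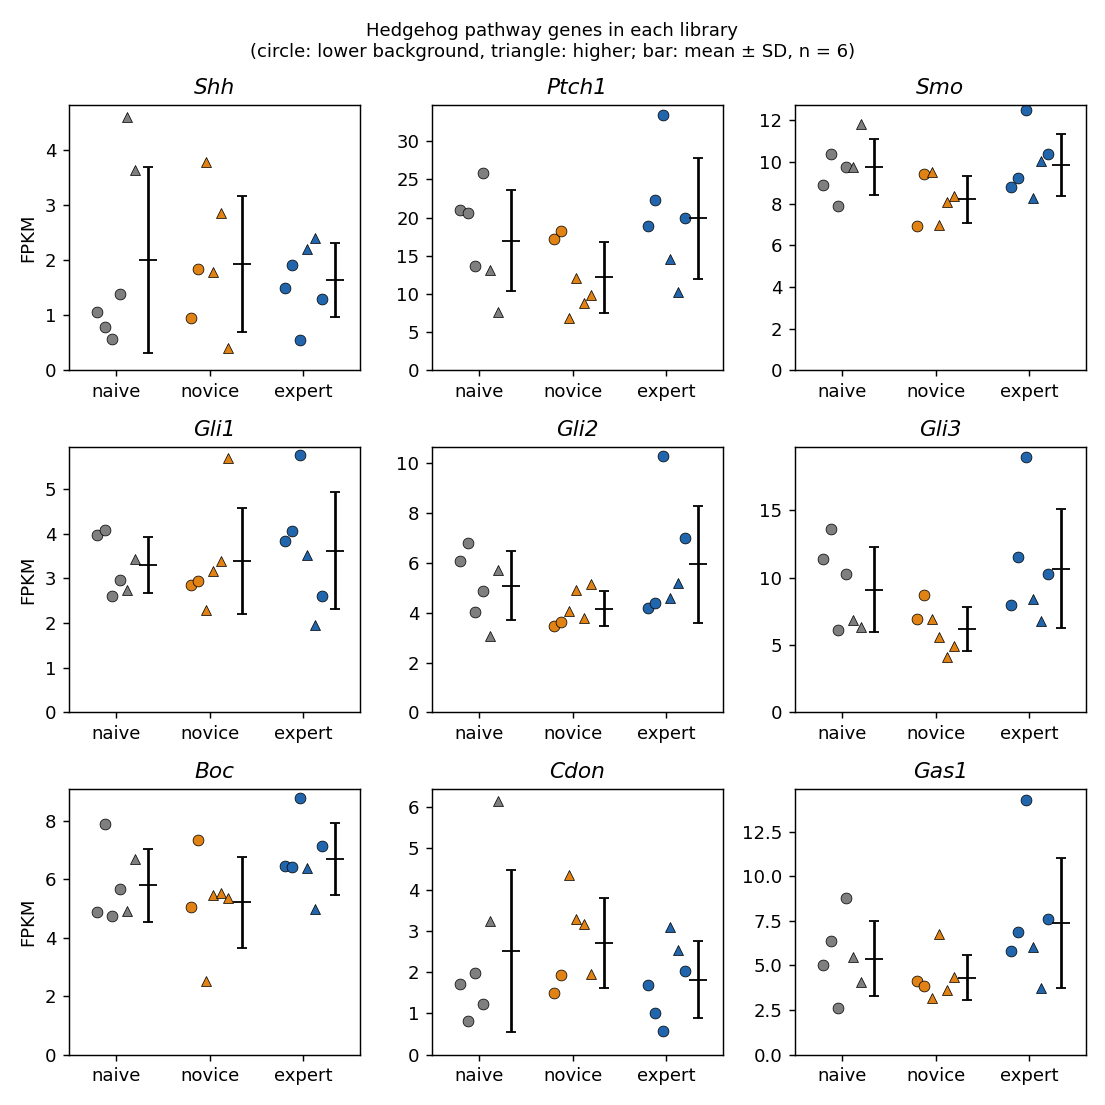
The plot of members by stage gives the level of each hedgehog pathway gene in FPKM (y axes, each from 0) in the 6 libraries of naive, novice and expert mice (circles for lower and triangles for higher background), with the mean and SD of each stage as a bar. The stages overlap for all 9 genes, and the library at the top of the expert group for Ptch1, Smo, Gli1, Gli2, Gli3, Boc and Gas1 is expert 3.

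Shh, the ligand of the pathway, was at the level of the silent genes. It ranged over 0.561 to 4.60 FPKM (median 1.22) in naive libraries, 0.399 to 3.77 FPKM (median 1.81) in novice libraries and 0.551 to 2.40 FPKM (median 1.70) in expert libraries. The highest values belonged to naive 5 and novice 3, both of higher background, and the stages overlapped. Shh exceeded the background mean in 7 of 18 libraries and the 95th percentile of the silent genes in 0 of 18, and 52.3% of the silent genes had a lower mean than Shh. Its values came out as whole fragments in 18 of 18 libraries, within 0.15 of a fragment, and amounted to 1 to 12 fragments per library. The scale was chosen on these same values for the closest agreement, which favours whole numbers. The sums over 6 libraries were 30 fragments in naive, 30 in novice and 38 in expert. These sums are not scaled to the depth of the libraries, which was greatest for expert 3, so they do not rank the stages. By FPKM the mean of Shh was lowest in expert libraries (1.64 FPKM), whereas the median was lowest in naive libraries (1.22 FPKM). Markers of deep layer neurons, the cells known to make Shh in mouse cortex, summed to 45.6 to 156 FPKM in naive, 50.4 to 148 FPKM in novice and 41.0 to 127 FPKM in expert libraries, and 0 of the 5 were at 0 in any library. No difference in Shh between stages was found at this depth. The log2 fold changes on log2(FPKM + 1) were 0.03 in novice against naive (95% interval -0.72 to 0.78) and -0.06 in expert against naive (-0.81 to 0.69). In expert against novice the value was -0.08 (-0.83 to 0.67). The annotation places the antisense gene 9530036O11Rik across Shh on the other strand, at 0.831 to 10.4 FPKM in the 18 libraries. Whether the counting used strand is not given, so reads of this pair may not have been told apart.

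Ptch1, which binds the ligand and is induced by the pathway, was the most abundant member and the one farthest above background. It had 7.62 to 25.8 FPKM (median 17.1) in naive libraries, 6.79 to 18.3 FPKM (median 10.9) in novice libraries and 10.3 to 33.5 FPKM (median 19.4) in expert libraries. Expert 3 held the highest value and novice 3 the lowest. Of the 6 expert libraries 4 were above all novice libraries, and the stages overlapped. Ptch1 was above the background mean in 18 of 18 libraries and above the 95th percentile of the silent genes in 15 of 18. By its length, its values amount to about 31 to 885 fragments per library (median 133).

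The co-receptors Boc, Cdon and Gas1 differed in how far they stood out. Boc ranged over 4.75 to 7.89 FPKM (median 5.29) in naive libraries, 2.51 to 7.35 FPKM (median 5.40) in novice libraries and 4.99 to 8.78 FPKM (median 6.45) in expert libraries. Novice 3 lay below all others, and the stages overlapped. Gas1, a membrane-anchored co-receptor, ranged over 2.6 to 8.75 FPKM (median 5.24) in naive libraries, 3.17 to 6.75 FPKM (median 4.0) in novice libraries and 3.75 to 14.3 FPKM (median 6.45) in expert libraries. Expert 3, at 14.3 FPKM, was far above the other expert libraries, the highest of which had 7.58 FPKM. Cdon ranged over 0.823 to 6.16 FPKM (median 1.85) in naive libraries, 1.49 to 4.35 FPKM (median 2.57) in novice libraries and 0.581 to 3.09 FPKM (median 1.86) in expert libraries. Like Shh it lay near the silent genes: it exceeded their 95th percentile in 0 of 18 libraries, and 65.8% of them had a lower mean. It amounted to 9 to 29 fragments per library, where 17 of 18 values came out whole on a scale chosen, as for Shh, for the closest agreement. Boc exceeded that percentile in 9 of 18 libraries and Gas1 in 8 of 18. Mir3081, a microRNA gene inside Boc on the same strand, was listed at 0 in 16 of 18 libraries and at up to 2391 FPKM in the others.

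Smo, which carries the signal across the membrane, was the steadiest member. It had 7.88 to 11.8 FPKM (median 9.75) in naive libraries, 6.90 to 9.49 FPKM (median 8.20) in novice libraries and 8.25 to 12.5 FPKM (median 9.63) in expert libraries. Its highest value over the 18 libraries was 1.81 times its lowest, against 4.93 times for Ptch1 and 11.5 times for Shh.

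Of the Gli factors, Gli3, the main repressor, was the highest and Gli1 the lowest. Gli3 ranged over 6.14 to 13.6 FPKM (median 8.59) in naive libraries, 4.13 to 8.72 FPKM (median 6.25) in novice libraries and 6.77 to 19.0 FPKM (median 9.34) in expert libraries. The 6 expert libraries were all above the novice median, and 3 of them were above all novice libraries. Gli2, the main activator, ranged over 3.05 to 6.80 FPKM (median 5.29) in naive libraries, 3.47 to 5.14 FPKM (median 3.93) in novice libraries and 4.19 to 10.3 FPKM (median 4.88) in expert libraries. The 6 novice libraries were all below the naive median. Gli1, an activator that is itself a target of the pathway, ranged over 2.6 to 4.08 FPKM (median 3.20) in naive libraries, 2.3 to 5.69 FPKM (median 3.06) in novice libraries and 1.95 to 5.75 FPKM (median 3.68) in expert libraries. It exceeded the 95th percentile of the silent genes in 2 of 18 libraries and amounted to 6 to 87 fragments, the most in expert 3. The gene Arhgap9 overlaps Gli1 on the other strand and had 0.938 to 6.87 FPKM.

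The level of several members moved with the background of the library, which is itself unevenly spread over the stages. Ptch1 was at 13.7 to 33.5 FPKM where the background was lower (10 libraries) and at 6.79 to 14.5 FPKM where it was higher (8 libraries). Cdon went the other way, at 0.581 to 2.04 FPKM in lower and 1.96 to 6.16 FPKM in higher background. Because the libraries fall into these classes, relations to the background (log2(FPKM + 1) of the gene against log2 of the background) were taken within each, which gave 18 relations for 9 genes. In the 10 libraries of lower background Ptch1 had a Pearson's r of -0.80 (permutation p = 0.0068, adjusted p = 0.03) and a Spearman's rho of -0.70 (permutation p = 0.031, adjusted p = 0.14). For Cdon in the same 10 libraries r was 0.77 (permutation p = 0.004, adjusted p = 0.03) and rho was 0.64 (permutation p = 0.054, adjusted p = 0.15). Gli3 (r = -0.78), Gas1 (r = -0.78), Smo (r = -0.75) and Boc (r = -0.65) also passed the adjusted threshold by Pearson's r, and 0 relations passed it by Spearman's rho. Without expert 1 and expert 3, the libraries farthest from the median background of the class, r was -0.58 for Ptch1, -0.54 for Gli3 and 0.66 for Cdon, and these relations rest partly on those libraries. In the 8 libraries of higher background 0 of 9 relations passed the adjusted threshold in the exact permutation test. The summed astrocyte markers were at 2726 to 6373 FPKM in lower and at 1260 to 1941 FPKM in higher background. The part of either in the levels of the members was not tested.

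**Figure D2:**
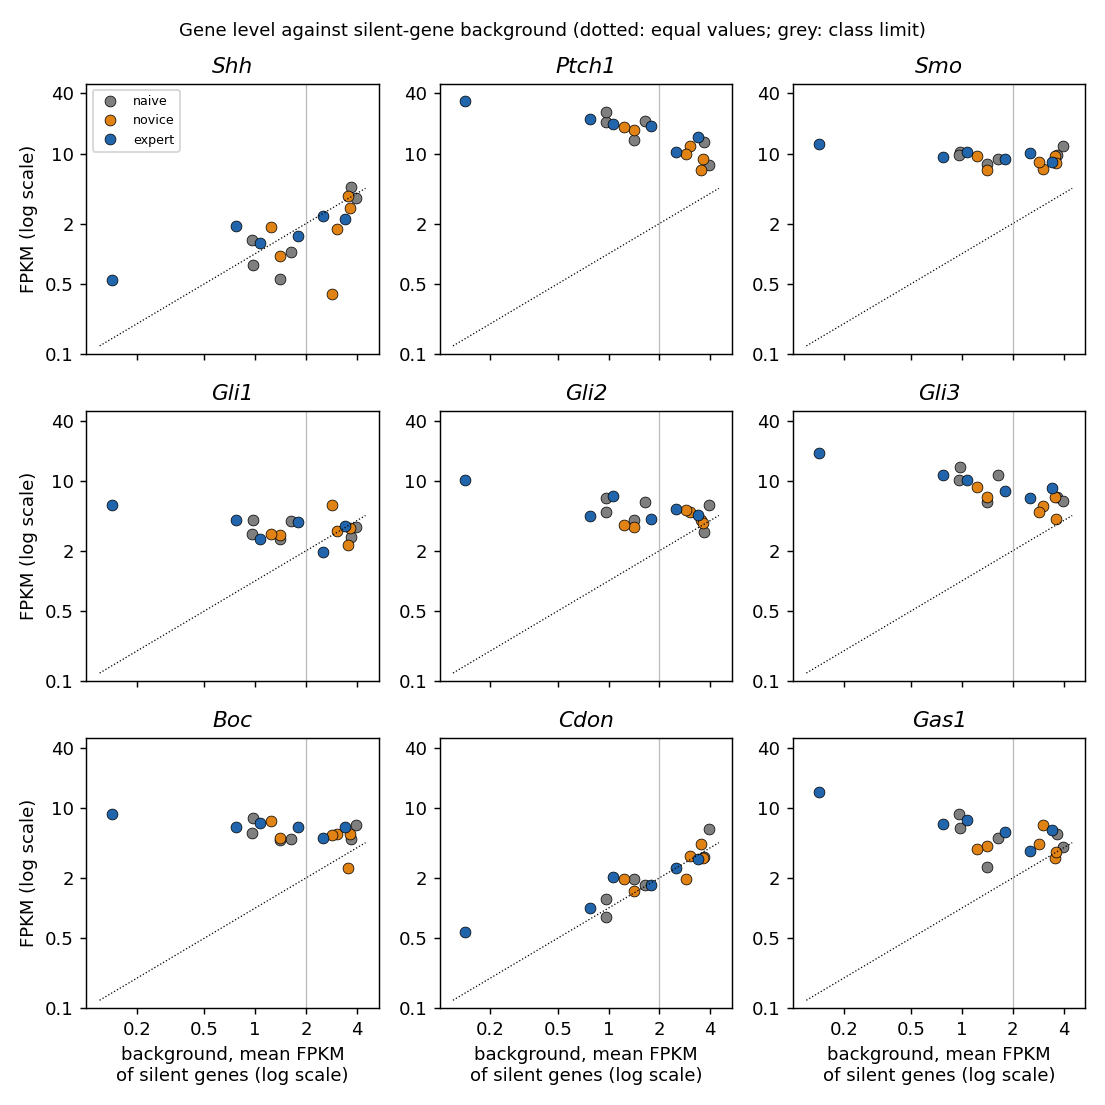
The plot of level against background sets the FPKM of each pathway gene (y axis, log scale) against the mean FPKM of the silent genes of the same library (x axis, log scale), with 1 point per library coloured by stage. Ptch1 lies above the dotted line of equal values in 18 of 18 libraries, whereas Cdon (12 of 18) and Shh (7 of 18) scatter around it.

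In novice against naive mice 0 of the 9 members passed the threshold of an adjusted p under 0.05 (limma, Benjamini-Hochberg over 21745 genes). The threshold was passed by 0 of 21745 genes (0%), and 1000 genes (4.6%, with 2.72% higher and 1.88% lower) had an unadjusted p under 0.05, against 0 of the 9 members. Ptch1 averaged 12.2 ± 4.66 FPKM in novice and 17.0 ± 6.65 FPKM in naive libraries (SD, n = 6 each), with a log2 fold change of -0.43 ± 0.31 (SE, on log2(FPKM + 1); adjusted p = 0.89), and was below the naive median in 4 of 6 novice libraries. Gli3 averaged 6.20 ± 1.65 FPKM in novice and 9.12 ± 3.12 FPKM in naive libraries, a log2 fold change of -0.47 ± 0.25 (adjusted p = 0.89), and was below the naive median in 5 of 6 novice libraries. Smo averaged 8.20 ± 1.13 FPKM in novice and 9.74 ± 1.33 FPKM in naive libraries, a log2 fold change of -0.22 ± 0.16 (adjusted p = 0.89), and was below the naive median in 6 of 6. The other members lay between -0.22 for Gas1 and 0.18 for Cdon. Gli1, the other readout gene, had a log2 fold change of 0.01 ± 0.22 (95% interval -0.45 to 0.46). Within background classes the log2 difference of Ptch1 was -0.15 in lower and -0.11 in higher background, and -0.26 with the background as a covariate; for Gli3 these values were -0.33, -0.27 and -0.33. The median of the 9 members was -0.21, against 0.07 for all genes tested and -0.09 for those with a mean of at least 5 FPKM. Of the marker lists, 10 of 10 astrocyte markers (median -0.60) and 4 of 4 markers of oligodendrocyte precursors (median -0.36) were also lower, with 1 and 2 of them at an unadjusted p under 0.05 and 0 past the adjusted threshold. Of the rest, 2 of 8 neuronal markers (median -0.17), 1 of 5 oligodendrocyte markers (-0.17) and 1 of 6 endothelial markers (-0.05) were higher. So were 3 of 5 markers of deep layer neurons (0.006), 5 of 7 microglial markers (0.26) and 3 of 5 ependymal markers (0.27). Of 8 markers of pericytes, smooth muscle and fibroblasts 5 were higher (0.03). The part of these cells in the members' differences was not tested.

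In expert against naive mice 0 of the 9 members and 0 of 21745 genes (0%) passed the threshold in the same limma fit, and 622 genes (2.86%, with 1.43% higher and 1.43% lower) had an unadjusted p under 0.05, against 0 of the 9 members. Gas1 had the largest log2 fold change among the members, 0.37 ± 0.27 (SE), with 7.38 ± 3.62 FPKM in expert and 5.37 ± 2.09 FPKM in naive libraries (SD, n = 6 each; adjusted p = 0.9996). It was 0.17 without expert 3, which lowers the expert mean to 6.00 FPKM. Ptch1 averaged 19.9 ± 7.90 FPKM in expert and 17.0 ± 6.65 FPKM in naive libraries, a log2 fold change of 0.23 ± 0.31, which was 0.03 without naive 6, 0.07 without expert 3 and 0.39 without expert 5. Smo, at 9.85 ± 1.5 FPKM in expert and 9.74 ± 1.33 FPKM in naive libraries, had a log2 fold change of 0.01 with a 95% interval of -0.32 to 0.34. Gli1 had 0.07 (95% interval -0.39 to 0.52). The widest intervals belonged to the members nearest background, -0.81 to 0.69 for Shh and -0.91 to 0.44 for Cdon. The median of the 9 members was 0.16, against -0.05 for all genes tested and 0.02 for those with a mean of at least 5 FPKM. Without expert 3 the median of the members was 0.02. Of the marker lists, 6 of 6 endothelial markers (median 0.65, 5 of them at an unadjusted p under 0.05; sums of 149 to 375 FPKM in expert and 130 to 185 FPKM in naive libraries), 10 of 10 astrocyte markers (median 0.19) and 4 of 4 markers of oligodendrocyte precursors (median 0.24) were also higher, with 0 past the adjusted threshold. Of the rest, 5 of 5 oligodendrocyte markers (median -0.31), 7 of 8 neuronal markers (-0.25) and 5 of 7 microglial markers (-0.11) were lower. So were 3 of 5 ependymal markers (-0.04), whereas 6 of 8 markers of pericytes, smooth muscle and fibroblasts (0.22) were higher. Of 5 markers of deep layer neurons 3 were higher (0.02). The part of these cells in the members' differences was not tested.

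In expert against novice mice 0 of the 9 members passed the adjusted threshold, again with 0 of 21745 genes (0%) past it, and 3 of 9 members were higher at an unadjusted p under 0.05 in limma, where 4.88% of all genes were; 0 of 9 members and 5.97% of all genes were lower (10.9% in either direction). Gli3 averaged 10.7 ± 4.41 FPKM in expert and 6.20 ± 1.65 FPKM in novice libraries (SD, n = 6 each), with a log2 fold change of 0.65 ± 0.25 (SE; unadjusted p = 0.017, adjusted p = 0.449), and was above the novice median in 6 of 6 expert libraries. Gas1 averaged 7.38 ± 3.62 FPKM in expert and 4.32 ± 1.26 FPKM in novice libraries, a log2 fold change of 0.59 ± 0.27 (unadjusted p = 0.040, adjusted p = 0.449), and was above the novice median in 5 of 6. Ptch1 averaged 19.9 ± 7.90 FPKM in expert and 12.2 ± 4.66 FPKM in novice libraries, a log2 fold change of 0.66 ± 0.31 (unadjusted p = 0.047, adjusted p = 0.449), and was above the novice median in 5 of 6. Smo and Gli2 were above the novice median in 6 of 6 expert libraries, with log2 fold changes of 0.24 ± 0.16 (adjusted p = 0.475) and 0.38 ± 0.22 (adjusted p = 0.450). Boc had 0.34 ± 0.20, Gli1 0.06 ± 0.22, Shh -0.08 ± 0.36 and Cdon -0.41 ± 0.32, and Cdon was below the novice median in 5 of 6. The median of the 9 members was 0.34, against -0.14 for all genes tested and 0.14 for those with a mean of at least 5 FPKM. The comparisons share libraries, so a low novice level enters both comparisons that include it.

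Without expert 3 the difference of expert from novice fell to 0.50 for Ptch1 (unadjusted p = 0.122), 0.48 for Gli3 (unadjusted p = 0.052) and 0.40 for Gas1 (unadjusted p = 0.121). Within background classes Ptch1 was higher by 0.36 in lower background, with 23.6 ± 6.70 FPKM in 4 expert and 17.8 ± 0.777 FPKM in 2 novice libraries. In higher background it was higher by 0.38, with 12.4 ± 3.0 FPKM in 2 expert and 9.38 ± 2.18 FPKM in 4 novice libraries. For Gli3 the log2 differences within classes were 0.53 and 0.44, and for Gas1 0.87 and 0.12, in lower and higher background. With the background as a covariate the differences were 0.21 for Ptch1, 0.31 for Gli3 and 0.32 for Gas1. The astrocyte markers were higher in expert than in novice libraries for 10 of 10 genes, with a median of 0.76. In limma 4 of 10 were at an unadjusted p under 0.05, and 0 of 10 passed the adjusted threshold. Relative to the mean of these markers, a scale chosen after the values were seen, the differences were -0.09 for Ptch1, -0.10 for Gli3 and -0.16 for Gas1. The 6 endothelial markers (median 0.72; sums of 149 to 375 FPKM in expert and 94.4 to 205 FPKM in novice libraries) and the 4 markers of oligodendrocyte precursors (median 0.59; 29.5 to 77.7 FPKM in expert and 23.0 to 34.6 FPKM in novice libraries) were also all higher. Of these, 5 of 6 and 4 of 4 were at an unadjusted p under 0.05 in limma, against 3 of 9 members, and 0 passed the adjusted threshold. Of the other lists, 3 of 8 neuronal markers (median -0.06), 3 of 5 oligodendrocyte markers (0.05), 2 of 7 microglial markers (-0.37), 5 of 8 markers of pericytes, smooth muscle and fibroblasts (0.10) and 4 of 5 ependymal markers (0.29) were higher. So were 3 of 5 markers of deep layer neurons (0.01). The part of these cells in the members' differences was not tested.

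**Figure D3:**
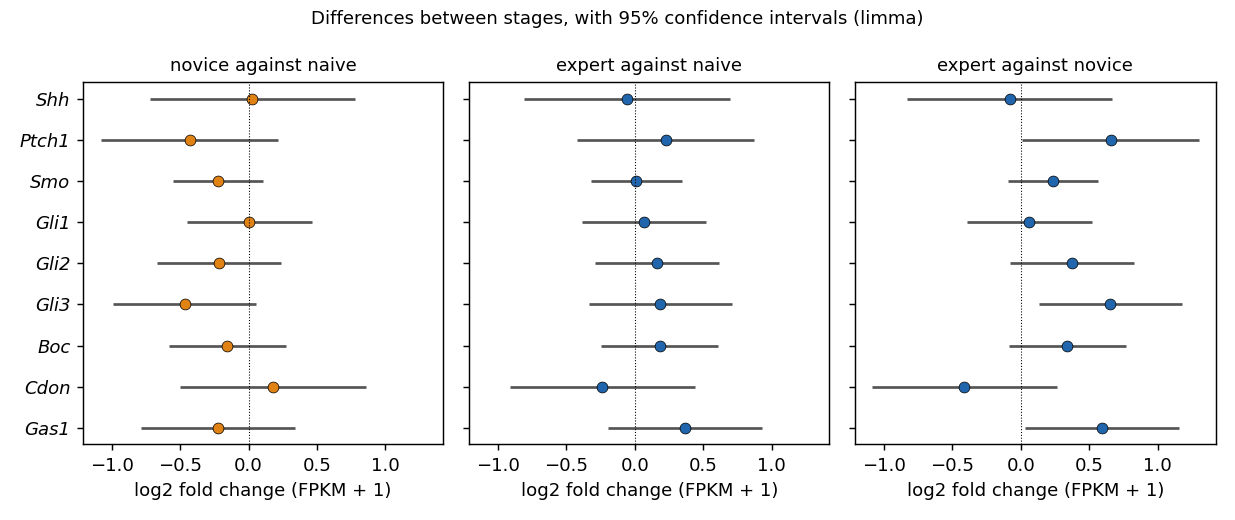
The plot of fold changes gives the log2 fold change of each pathway gene on log2(FPKM + 1) (x axes) with its 95% confidence interval from limma, in 1 panel per comparison. The intervals leave out 0 for Ptch1, Gli3 and Gas1 in expert against novice, before adjustment over 21745 genes.

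The promoters of these 3 genes are shown because they are the members that differed most between expert and novice mice. The sequences are RefSeq windows from 250 bases before to 50 bases after the annotated start, on build GRCm38.p6, whereas the authors' values were made on mm9. Such windows were found for 6 of the 9 members. Capitals mark GGGCGG, or CCGCCC where the match is on the other strand, the core of the GC box.
Ptch1, chr13:63565686-63565985, minus strand: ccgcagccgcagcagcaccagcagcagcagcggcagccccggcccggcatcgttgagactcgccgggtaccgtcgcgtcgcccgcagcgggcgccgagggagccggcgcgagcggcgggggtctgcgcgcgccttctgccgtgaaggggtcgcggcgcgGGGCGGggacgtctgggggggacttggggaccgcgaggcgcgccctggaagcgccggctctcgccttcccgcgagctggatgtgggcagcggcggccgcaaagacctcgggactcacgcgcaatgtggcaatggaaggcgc
Gli3, chr13:15463473-15463772, plus strand: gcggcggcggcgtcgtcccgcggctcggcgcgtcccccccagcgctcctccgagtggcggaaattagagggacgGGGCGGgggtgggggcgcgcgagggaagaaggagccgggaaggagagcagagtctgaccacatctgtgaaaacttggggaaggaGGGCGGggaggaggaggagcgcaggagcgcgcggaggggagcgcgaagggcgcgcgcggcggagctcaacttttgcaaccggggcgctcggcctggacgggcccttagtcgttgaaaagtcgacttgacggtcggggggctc
Gas1, chr13:60177486-60177785, minus strand: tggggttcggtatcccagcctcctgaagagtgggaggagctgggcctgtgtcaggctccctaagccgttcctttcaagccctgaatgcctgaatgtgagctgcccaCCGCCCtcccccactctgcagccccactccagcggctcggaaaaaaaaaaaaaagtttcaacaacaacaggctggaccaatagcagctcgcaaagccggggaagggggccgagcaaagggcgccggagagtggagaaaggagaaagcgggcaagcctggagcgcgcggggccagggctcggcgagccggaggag
The Ptch1 window holds 47 CpG dinucleotides, that of Gli3 39 and that of Gas1 17, against a median of 7 over 32851 such windows of 27025 genes. GGGCGG was found on either strand once in Ptch1, 2 times in Gli3 and once in Gas1, and is held by 35.7% of all windows. GACCACCCA, the sequence known to be bound by Gli factors, was searched on both strands and is held by 0.253% of all windows and by 0 of the 6 members' windows. So was ACCACCCA, which every GACCACCCA also contains, with 1.48% of all windows and 0 of the 6.

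Other genes of the pathway were counted as lists, and 0 of their genes passed the adjusted threshold in any comparison. Of 8 genes for other ligands and for ligand release, 7 were tested, since Disp1, which releases the ligand from cells, was listed at 0 in 18 of 18 libraries. In expert against novice 0 were higher and 7 lower (median -0.22), and in novice against naive 6 were higher and 1 lower (median 0.30). Most of them lay near or below background. The median ratio to the background mean was 0.44 for Ihh, 0.52 for Hhat, 0.98 for Scube2, 0.98 for Scube3 and 1.08 for Dhh. It was 2.4 for Disp2 and 2.7 for Scube1. The background was higher in 4 novice, 2 naive and 2 expert libraries, and its part in these directions was not tested. Dhh, another hedgehog ligand, was above the background mean in 10 of 18 libraries. It had 1.57 ± 1.33 FPKM in expert and 2.94 ± 1.64 FPKM in novice libraries, a log2 fold change of -0.70 ± 0.42 (SE), and had 2.13 ± 1.60 FPKM in naive libraries. Scube1, of a family that helps to release the ligand, had 4.76 ± 2.52 FPKM in expert and 6.57 ± 1.74 FPKM in novice libraries, a log2 fold change of -0.48 ± 0.30. Without expert 3 the log2 fold change was -0.46 for Dhh and -0.25 for Scube1. Disp2 had -0.22 ± 0.27 in expert against novice, Scube2 0.30 ± 0.39 in expert against naive and Scube3 0.27 ± 0.30 in novice against naive. Among all genes tested 40.4% were higher in expert than in novice and 57.0% higher in novice than in naive.

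Receptors and binders outside the members numbered 6, of which 1 was higher and 5 lower in expert against novice (median -0.13), and 5 were higher and 1 lower in novice against naive (median 0.17). The glypican Gpc5, a cell surface proteoglycan, was well above background at 53.8 ± 27.9 FPKM in expert and 34.6 ± 13.6 FPKM in novice libraries, a log2 fold change of 0.55 ± 0.37, which was 0.33 without expert 3. Gpc6 was at 24.0 ± 1.70 FPKM in novice and 20.4 ± 4.52 FPKM in naive libraries, a log2 fold change of 0.25 ± 0.20. Lrp2, an endocytic receptor, had a log2 fold change of -0.55 ± 0.33 in expert against novice. It lay near background, above the background mean in 9 of 18 libraries, and 56.5% of the silent genes had a lower mean. Gpc3, which in mouse restrains the pathway, was above the background mean in 15 of 18 libraries and had 0.37 ± 0.31 in novice against naive.

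Cytoplasmic and ciliary genes that carry or restrain the signal numbered 23. In expert against novice 18 were higher and 5 lower (median 0.18), with 3 of 23 higher at an unadjusted p under 0.05, where 4.88% of all genes were. In novice against naive 5 were higher and 18 lower (median -0.13), and in expert against naive 16 were higher and 7 lower (median 0.09), where 43.9% of all genes were higher. Tulp3, which brings receptors into the cilium, had 10.3 ± 3.15 FPKM in expert and 4.93 ± 1.08 FPKM in novice libraries, a log2 fold change of 0.91 ± 0.21 (unadjusted p = 0.00037, adjusted p = 0.449). Its values were 7.43 to 16.4 FPKM in expert and 3.41 to 6.02 FPKM in novice libraries. The share of all genes whose libraries of these stages do not overlap was not counted. Tulp3 had the smallest p of the 23 genes in this comparison, where 10.9% of all genes had an unadjusted p under 0.05. In novice against naive Tulp3 had a log2 fold change of -0.53 ± 0.21 (unadjusted p = 0.022, adjusted p = 0.89). Evc, part of a complex at the base of the cilium that acts with Smo, had 4.32 ± 0.944 FPKM in expert and 2.81 ± 0.756 FPKM in novice libraries, a log2 fold change of 0.48 ± 0.20 (unadjusted p = 0.026). Its partner Evc2 had 0.29 ± 0.20 in expert against naive. Prkaca, a catalytic subunit of protein kinase A, which marks Gli factors for cutting, had 15.5 ± 4.52 FPKM in expert and 9.82 ± 5.62 FPKM in novice libraries, a log2 fold change of 0.73 ± 0.34 (unadjusted p = 0.041). Ift122, a subunit of ciliary transport, had -0.26 ± 0.21 in novice against naive.

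General target genes of the Gli factors, among them Ptch1 and Gli1, numbered 12, and 11 were in the table and tested. In expert against novice 6 were higher and 5 lower (median 0.06), where 40.4% of all genes were higher. Ptch1, already counted among the 9 members, and Ccnd2 were higher at an unadjusted p under 0.05 in limma, where 4.88% of all genes were. In novice against naive 5 were higher and 6 lower (median -0.26), where 57.0% of all genes were higher. Ccnd2, a cyclin of the early cell cycle, had 15.0 ± 4.91 FPKM in expert and 8.95 ± 2.08 FPKM in novice libraries, a log2 fold change of 0.64 ± 0.23 (unadjusted p = 0.012, adjusted p = 0.449). Ccnd1, a related cyclin, had 4.29 ± 1.56 FPKM in novice and 6.95 ± 1.98 FPKM in naive libraries, a log2 fold change of -0.61 ± 0.27 (unadjusted p = 0.033, adjusted p = 0.89). The survival gene Bcl2 had 0.39 ± 0.22 in expert against novice, and Igfbp6, a binder of insulin-like growth factors, had -0.53 ± 0.41 in expert against naive.

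A list of 8 astrocyte genes, some of which are known to depend on Shh signalling in mouse, was lower for 7 and higher for 1 in novice against naive (median -0.53) and higher for 6 and lower for 2 in expert against novice (median 0.68). Slc1a3, Aqp4 and Gfap are also among the 10 astrocyte markers, whose medians were -0.60 and 0.76 in the same comparisons. Gfap, an intermediate filament gene, had 20.2 ± 8.37 FPKM in expert and 10.6 ± 2.07 FPKM in novice libraries, a log2 fold change of 0.81 ± 0.29 (unadjusted p = 0.013, adjusted p = 0.449). Kcnj10, a potassium channel gene, had 75.4 ± 40.2 FPKM in expert and 40.1 ± 16.8 FPKM in novice libraries, a log2 fold change of 0.84 ± 0.37 (unadjusted p = 0.035). Aqp4 had 0.72 ± 0.32 in expert against novice (unadjusted p = 0.033), and the glutamate transporter gene Slc1a3 had 0.19 ± 0.42 in expert against naive.

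**Figure D4:**
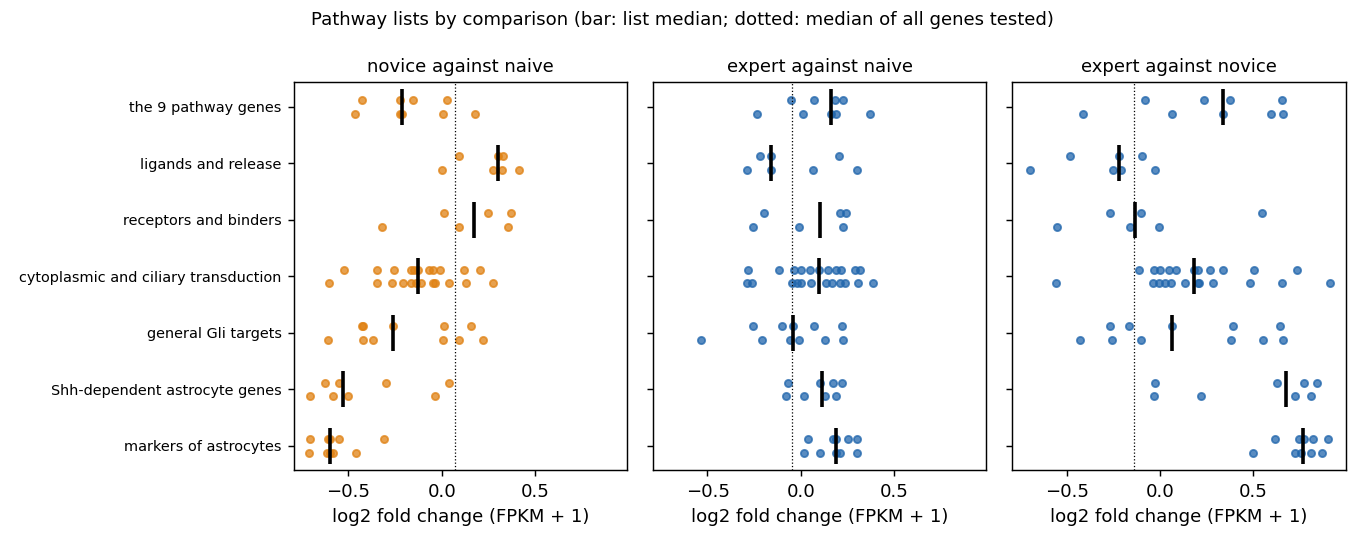
The plot of pathway lists gives the log2 fold change on log2(FPKM + 1) (x axes) of each tested gene of a list as a point and the list median as a bar, with the median of all genes tested as a dotted line, in 1 panel per comparison. In expert against novice the 9 pathway genes (median 0.34) lie between the cytoplasmic and ciliary genes (0.18) and the astrocyte markers (0.76).

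Likeness of pattern was measured as Pearson's r of log2(FPKM + 1) over the 18 libraries among 9536 genes with a mean of at least 5 FPKM, as a description; the libraries share their depth, background and astrocyte content. Ptch1 was most like Xpr1 (r = 0.97), Lrrc58 (0.96) and Mfn1 (0.95). Gli3 was most like Grin2c (0.95), Scara3 (0.94) and Mfge8 (0.94), and Gas1 most like Soat1 (0.88), Trpm7 (0.87) and Plcd4 (0.87). Gli2 was most like Stat3 (0.87), Dhcr7 (0.86) and Sema4b (0.84), Boc most like Tgoln2 (0.86), Mbtps1 (0.85) and Tusc3 (0.81), and Smo most like Pkn2 (0.82), Klhl24 (0.81) and Ext2 (0.79). Of the other 5 members with a mean of at least 5 FPKM, Ptch1 was most like Gli3 (r = 0.83), followed by Gas1 (0.74), and least like Smo (0.22). With the background regressed out of each gene, Ptch1 stayed most like Xpr1 (0.90), and its r with Gli3 was 0.44 and with Smo -0.28. The 3 genes most like Gas1 all changed, to Mmrn2 (0.83), Utp6 (0.82) and Imp3 (0.77). Those of Gli2 changed too, to Id3 (0.80), Pard3 (0.80) and Cldn12 (0.78). The gene most like Gli3 became Mfge8 (0.85), that of Boc Mrps7 (0.79) and that of Smo Fam151b (0.79).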

How the data were processed

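RNA of M1 astrocytes was made into SMARTer stranded total RNA libraries and sequenced on an Illumina HiSeq, per the labels' protocols. TopHat and Cufflinks were used with build mm9, per the submitters' processing notes; the sources used here give no versions, options or use of strand. The values the authors deposited are FPKM, 1 per gene and library. Of 23951 entries, 27 with date-like names were left out. The unit was checked on 916 olfactory receptor genes: 78.2% to 82.3% of low values times coding length came within 0.1 of whole multiples of 1 step per library, where a step not chosen for closest agreement, as this was, would give about 20%. The step, the FPKM of 1 fragment on 1 kb, was 0.292 (expert 3) to 1.91 (naive 6). If FPKM were scaled to the library total, depths were 524000 to 3420000 fragments.

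The 21745 genes that reached 1 FPKM in 6 or more of 18 libraries were fitted on log2(FPKM + 1) with limma 3.58.1 in R 4.3.3 (lmFit, eBayes with trend), all 18 libraries in 1 fit with no covariate, two-sided, Benjamini-Hochberg over all genes, threshold 0.05. A fold change on this scale understates that of low genes. Background left out 9 silent-family genes with a mean of at least 20 FPKM, a step chosen after values were seen. Relations to background used 100000 permutations, or all of them for 8 libraries. The members and lists were chosen with earlier results of these data known. All members were named, with up to 3 genes of smallest p per list and comparison and, for members of at least 5 FPKM, the 3 genes of highest r; 1 gene of the lists, counted in them, is not reported here by name. Separate animals are not stated, so p-values measure the spread between libraries, which may be technical. Alternatives tried were another pseudocount, other filters, quantile normalization, covariates, background classes, a replicate block, the compared groups alone and leaving out libraries.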

Additional observations from a re-analysis of the deposited data

Results flagged for a closer look

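Among 27 sets of 6 libraries (9 genes in 3 stages), 3 held a library whose gap to the nearest other exceeded 0.625 of the range of the set, Dixon's 95% critical value; chance gives about 1 in 20. Gli1 in novice 6 was 5.69 FPKM, above the other novice libraries at 2.3 to 3.39 FPKM. Gas1 in novice 4 was 6.75 FPKM, where the other novice libraries had 3.17 to 4.37 FPKM. Gas1 in expert 3 was 14.3 FPKM, where the other expert libraries had 3.75 to 7.58 FPKM, and expert 3 is the library of lowest background.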

How the results depend on the processing

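The count of genes past the threshold was 0 in each comparison under all alternatives but 1: within the 8 libraries of higher background it was 3 in novice against naive, 4 in expert against naive and 5 in expert against novice. The median of the 9 genes kept its sign in novice against naive and expert against novice except relative to the astrocyte markers, where it was 0.36 and -0.41. In expert against naive it turned to -0.018 within higher background and to -0.013 relative to the astrocyte markers. The cause was not tested for these or the changes of sign that follow, all in log2 fold changes that passed no threshold. With the background as a covariate the sign turned to -0.12 for Shh and -0.00025 for Cdon in novice against naive, to 0.18 for Shh, -0.044 for Ptch1, -0.020 for Smo, -0.016 for Gli1, -0.019 for Gli3, 0.041 for Cdon, -0.14 for Aqp4, 0.071 for Dhh, -0.14 for Kcnj10 and -0.19 for Slc1a3 in expert against naive, to 0.30 for Shh, -0.075 for Gli1, 0.041 for Cdon and -0.034 for Gpc5 in expert against novice. Within the libraries of higher background the sign turned to -0.81 for Shh, 0.062 for Gli2, -0.42 for Cdon, -0.12 for Gpc6 and -0.034 for Scube1 in novice against naive, to -0.22 for Smo, -0.16 for Gli1, -0.018 for Boc, -0.13 for Ccnd2 and 0.54 for Disp2 in expert against naive, to 0.18 for Shh, -0.30 for Gli1 and 0.23 for Disp2 in expert against novice. Within those of lower background the sign turned to -0.16 for Gli1, 0.089 for Boc and -0.035 for Gpc3 in novice against naive, to 0.23 for Shh in expert against naive. With quantile normalization the sign turned to -0.22 for Shh, -0.10 for Gli1, -0.084 for Cdon and -0.00479 for Scube3 in novice against naive, to 0.068 for Shh and -0.0068 for Smo in expert against naive, to 0.29 for Shh and 0.067 for Disp2 in expert against novice. Relative to the astrocyte markers, a scale chosen after seeing the data, the sign turned to 0.14 for Ptch1, 0.35 for Smo, 0.36 for Gli2, 0.11 for Gli3, 0.42 for Boc and 0.35 for Gas1 in novice against naive, to -0.16 for Smo, -0.11 for Gli1 and -0.013 for Gli2 in expert against naive, to -0.093 for Ptch1, -0.51 for Smo, -0.69 for Gli1, -0.37 for Gli2, -0.096 for Gli3, -0.41 for Boc and -0.16 for Gas1 in expert against novice. Without the 2 libraries against their sex label the sign turned to -0.058 for Shh and 0.036 for Boc in novice against naive, to 0.00185 for Shh and -0.069 for Gli1 in expert against novice. Over the fits that each leave out 1 library, the log2 fold changes that changed sign ran over -0.046 to 0.32 for Aqp4 in expert against naive, -0.25 to 9.255e-05 for Boc in novice against naive, -0.39 to 0.00056 for Cdon in expert against naive, -0.051 to 0.19 for Gli1 in expert against naive, -0.056 to 0.19 for Gli1 in expert against novice, -0.12 to 0.080 for Gli1 in novice against naive, -0.032 to 0.37 for Kcnj10 in expert against naive, -0.21 to 0.16 for Shh in expert against naive, -0.27 to 0.081 for Shh in expert against novice, -0.14 to 0.24 for Shh in novice against naive, -0.020 to 0.37 for Slc1a3 in expert against naive, -0.051 to 0.066 for Smo in expert against naive. In those fits 0 genes passed in any comparison, and the 2360 genes with an unadjusted p under 0.05 in expert against novice became 972 without expert 3, 1416 without expert 6, 1542 without novice 3, 1519 without novice 5 and 4376 without expert 4. Counts of that kind were 1000 in novice against naive, with 650 without naive 2, 1779 without naive 5, 1667 without naive 6 and 1568 without novice 2, and 622 in expert against naive, with 407 without expert 6 and 965 without expert 4. With the background as a covariate these counts were 1023 in expert against novice and 1252 in expert against naive, within higher background 1017 and 1369, and within lower background 1220 in expert against naive. Relative to the astrocyte markers they were 1501 in novice against naive, 157 in expert against naive and 5380 in expert against novice, and with the filter of 5 FPKM, which tests fewer genes, 485, 354 and 1467.

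With the replicate number of the titles as a block, 0 genes passed in each comparison, and the medians of the 9 genes were -0.21 in novice against naive, 0.16 in expert against naive and 0.34 in expert against novice. In this limma fit 1221 genes had an unadjusted p under 0.05 in novice against naive, 761 in expert against naive and 2963 in expert against novice. Without the block these counts were 1000, 622 and 2360. Libraries of the same number did not all deviate together, with correlations of -0.361 to 0.456 over 18 pairs (mean 0.073), 10 of them above 0.1. Over 90 pairs of different number the correlations were -0.473 to 0.491 (mean -0.014), 37 of them above 0.1. The numbers were not taken to pair libraries in the main fit, and whether they do was not tested. Depth limits Shh most, at 1 to 12 fragments per library (median 5.5), and then Gli1 (6 to 87, median 14.5), Gas1 (7 to 184, median 17.5) and Cdon (9 to 29, median 18.5).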
